A study of Mus musculus with 8 samples.

Results

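Clone 41 was set against clone 18, the 2 lines of this series that are stable transfectants of A20 cells carrying IgE. A20 is a mouse B lymphoma line of mature B cell type, and the IgE clones were made by transfecting it with IgE and keeping single clones. The comparison used the 2 arrays titled for clone 41 and the 2 titled for clone 18, out of 8 arrays. The other 4 arrays were 2 of a stable A20 transfectant with membrane IgM and 2 of A20 cells without transfection. All cells grew in RPMI1640 with 10% serum and 50 µM beta-mercaptoethanol. Each line stands for 1 clone or 1 culture, and nothing in the labels tells if both arrays of a clone stem from different cultures. Every p-value thus measures only the spread between these arrays, which may be technical. Genes that the array or the reference table places on chromosomes X or Y were left out, which removed 777 of 19973 genes tested and left 19196 genes. Values are log2 signals of 1 probe per gene relative to the 75th percentile of the array, so they compare arrays and not genes, and differences are clone 41 minus clone 18.

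A clone is the progeny of 1 cell, so lines picked after a stable transfection share the introduced gene but differ in where it entered the genome and in whatever state or mutation the founding cell carried. Such differences are passed on to all daughter cells and can turn single genes on or off. IgE at the surface of a B cell pairs with the Cd79a and Cd79b chains to form a B cell receptor, whose signal runs through kinases such as Syk and is restrained by phosphatases and Cbl ubiquitin ligases.

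Few genes were called between the 2 clones. A gene was called where limma's moderated test gave a Benjamini-Hochberg adjusted p under 0.05 and the change was at least 2-fold. By this rule 60 of 19196 genes were called (0.313%), 30 higher in clone 41 (0.156%) and 30 lower (0.156%). An unadjusted p under 0.05 (limma) was reached by 1119 of the 19196 genes. A share of 0.05 would reach it on average without any difference, so this count alone does not show one. At least 2-fold differences, whatever their p, were found for 698 genes. For scale, the same rule over the same genes called 5.56% in clone 41 against untransfected cells and 7.62% in clone 18 against untransfected cells. Against IgM cells it called 7.33% in clone 41 and 9.02% in clone 18, and it called 2.02% in IgM cells against untransfected cells. These comparisons share arrays and are given side by side only.

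Leaving out 1 IgE array lowered the counts by over 1.5 times. Without clone 41 replicate 1 there were 16 higher and 16 lower calls, and without clone 41 replicate 2 there were 10 and 19. Without clone 18 replicate 1 there were 10 higher and 16 lower calls, and without clone 18 replicate 2 there were 7 and 17. Without either untransfected array there were 50 higher calls and 44 lower. The genes that kept their call without each of the 8 arrays in turn numbered 17 of 60. They were 1810009N02Rik, Cd99, Dsg1c, Gm10639, Hspb1 and Ttn, higher in clone 41, and 6720422M22Rik, Gli3, Gm10863, Gstk1, Lgr6, Ppp2r2c, Zfp941, the transcripts ENSMUST00000134982 and ENSMUST00000150472, a lincRNA of chromosome 2 and the probe A_55_P2049318, lower in clone 41. Those among them outside the naming rule are named here after their values were seen. Keeping a call here concerns the arrays left out and not the processing. Probes were chosen by detection once, on all 8 arrays, and not again for these fits. A gene chosen because of 1 line thus stayed in. Over all alternatives, processing included, 7 of the 60 genes stayed called wherever they were tested. With the spread taken from the 4 IgE arrays alone, 76 genes were called higher and 58 lower.

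Over 16700 genes well above background on all 8 arrays, the SD of the log2 difference was 0.37 between the 2 arrays of clone 41 and 0.32 between the 2 arrays of clone 18. Between an array of clone 41 and an array of clone 18 it ran from 0.37 to 0.48. Between an IgE array and a control array it ran from 0.67 to 0.83. It was 0.36 between the 2 IgM arrays and 0.65 between the 2 untransfected arrays. Those untransfected arrays differed by 2-fold or more in 10.1% of the genes. The fit takes the spread of a gene from all 4 lines, so the untransfected pair enters the test between the clones. A difference of 2-fold or more was shown by 1.92% of the genes between the clone 41 arrays, by 0.808% between the clone 18 arrays, and by 2.03% to 4.06% between clones.

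**Figure D1:**
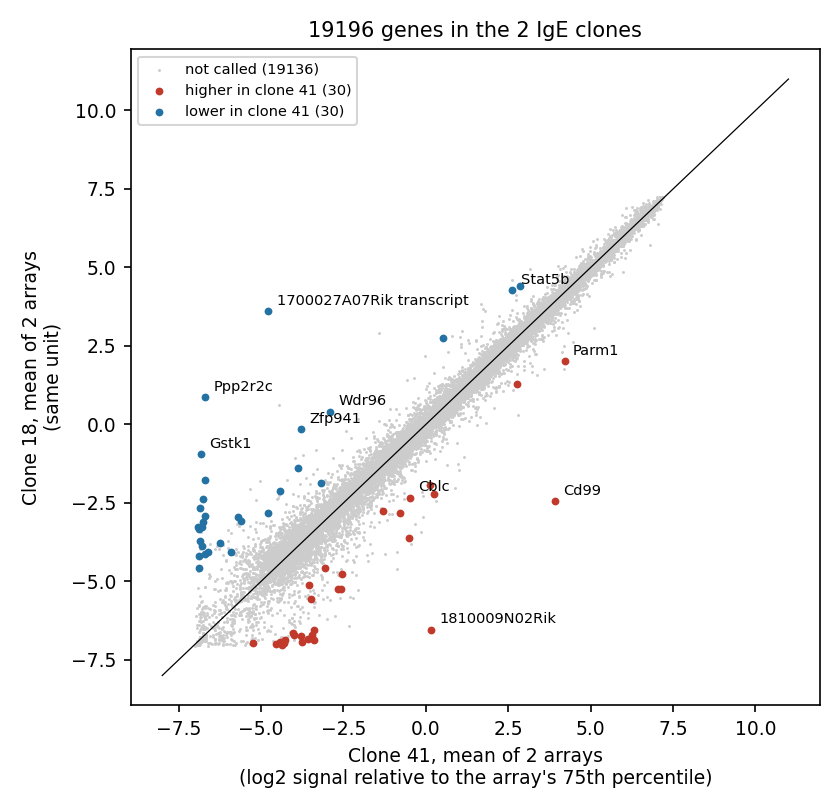
Each point is 1 of 19196 genes, with the mean of the 2 clone 41 arrays on the horizontal axis and the mean of the 2 clone 18 arrays on the vertical axis, both as log2 signal relative to the array's 75th percentile. Red points are the 30 genes called higher in clone 41, blue points the 30 called lower, and the line marks equal values; most called genes sit at the low end of one axis.

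Most of the 60 genes were detected in 1 clone and not in the other. This share describes the called genes only and was not set against the share among all genes. Whether it reflects the clones or dim probes under the filter was not tested. A probe counts as detected where the scanner software calls its spot well above background. The filter kept a probe detected on both arrays of any 1 line. A gene detected in 1 line only was thus tested because of that line. On both arrays of clone 41 and on no array of clone 18, 18 genes that were higher in clone 41 were detected. On both arrays of clone 18 and on no array of clone 41, 22 genes that were lower in clone 41 were detected. For these genes only a bound on the fold can be given, from 1.71 to 40.6 for the 18 and from 1.32 to 292 for the 22. Another 9 higher and 7 lower genes were well above background on all 4 IgE arrays. The remaining 4 genes had mixed detection: Serpinb9 and Baiap2l1, higher in clone 41, Spsb2, lower in clone 41, and Klf12, whose signal was below background on every IgE array.

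Cd99, which encodes a surface glycoprotein of leukocytes with a role in adhesion and migration, differed the most among genes measured on all 4 IgE arrays. Its signal was 3.89 and 3.94 in clone 41, against -2.13 and -2.78 in clone 18, with 3.48 to 3.90 on the 4 control arrays. Clone 41 lay with the controls, while both clone 18 arrays were far below every other array. The difference was 6.37 ± 0.26 (SE), or 82.5-fold, with an adjusted p of 0.000158 by limma. The array gives this gene no position, and it was named after its values were seen.

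The RIKEN cDNA gene 1810009N02Rik, also without a position on the array and also named after its values were seen, showed the same order. Its signal was 0.17 and 0.13 in clone 41, against -6.21 and -6.87 in clone 18, where it was not above background, with -0.09 to 0.25 on the control arrays. It was at least 40.6-fold higher in clone 41 (adjusted p = 0.000123, limma). A bound of this kind sets the mean of the detected clone against a limit averaged over the arrays of the other clone. On each array the limit is the lowest signal that counted as above background, or the gene's own signal where that was higher. The p-value beside a bound tests the measured difference and not the bound. Both genes kept their call without each array in turn.

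Called genes with roles in cell signalling included Lax1, Cd6, Cblc and Tyro3, higher in clone 41, and Stat5b and Ptprs, lower in clone 41. Lax1 encodes a transmembrane adaptor that dampens antigen receptor signals in lymphocytes. It had -2.82 and -2.33 in clone 41, against -5.01 and -5.46 in clone 18, and 0.26 to 1.02 on the control arrays. Both clones were thus below all controls, and clone 41 was at least 5.92-fold higher than clone 18 (adjusted p = 0.011, limma). Without 1 array its adjusted p reached 0.0964.

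Cblc encodes a member of the Cbl family of ubiquitin ligases. It had -0.68 and -0.31 in clone 41, against -2.38 and -2.29 in clone 18, and 4.88 to 5.58 on the control arrays. Both clones lay several log2 units below every control array, and clone 41 was 3.58-fold above clone 18 (1.84 ± 0.24, adjusted p = 0.0459, limma). The call was lost without any 1 of 6 arrays, with an adjusted p of up to 0.351. Cd6, a scavenger-type receptor best known on T cells and also found on some B cells, had 0.05 and 0.20 in clone 41, against -1.68 and -2.18 in clone 18. The control arrays had -0.33 to -0.17, so clone 18 was the line that stood apart (difference 2.06 ± 0.21, adjusted p = 0.0143, up to 0.122 without 1 array, limma). Tyro3, a receptor tyrosine kinase of the TAM family, had 2.65 and 2.89 in clone 41, against 1.15 and 1.40 in clone 18, and 2.75 to 3.50 on the control arrays. Here too clone 18 was below all other arrays (difference 1.49 ± 0.17, adjusted p = 0.0285, up to 0.241 without 1 array, limma).

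Stat5b encodes a transcription factor switched on by cytokine receptors. It had 2.59 and 2.66 in clone 41, against 4.22 and 4.35 in clone 18, and 2.43 to 2.66 on the control arrays. Clone 18 stood above all 6 other arrays, which lay within a narrow range, and the difference was -1.66 ± 0.16 (3.16-fold, adjusted p = 0.012, limma). Both probes of the gene were called lower in clone 41 when each probe was tested on its own. Its neighbour Stat5a, which encodes a closely related factor, differed by -0.16 ± 0.17 (adjusted p = 0.999, limma). Without any 1 of the 4 IgE arrays the call of Stat5b was lost, with an adjusted p of up to 0.117.

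Ptprs encodes a receptor-type tyrosine phosphatase. Its signal was 2.92 and 2.81 in clone 41, against 4.43 and 4.41 in clone 18, and 3.66 to 4.22 on the control arrays, so the control arrays lay between the clones. The difference was -1.55 ± 0.15 (adjusted p = 0.014, up to 0.167 without 1 array, limma), and both of its probes were called. A cDNA named 9630010G10Rik, whose probe starts 18159 bases away on the same strand of chromosome 17, was also lower: 0.37 and 0.66 in clone 41, against 2.82 and 2.67 in clone 18, and 1.66 to 2.34 on the control arrays. At this locus clone 41 was the line below the controls, and the cDNA differed by -2.23 ± 0.21 (adjusted p = 0.0106, up to 0.139 without 1 array, limma).

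Further genes measured on all 4 IgE arrays were also called. Zfp941 encodes a zinc finger protein and had -4.04 and -3.56 in clone 41, against -0.19 and -0.13 in clone 18, and 0.30 to 0.83 on the control arrays. The difference was -3.63 ± 0.22 (12.4-fold, adjusted p = 0.00151, limma), and the call was kept without each array in turn. Wdr96 (now Cfap43), a gene of cilia and flagella, had -3.30 and -2.50 in clone 41, against 0.20 and 0.61 in clone 18, and 0.83 to 1.87 on the control arrays. For both genes clone 41 lay far below every other array, and clone 18 lay below the controls by less (Wdr96 difference -3.30 ± 0.33, adjusted p = 0.0131, up to 0.123 without 1 array, limma).

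Dlg5 encodes a scaffold protein of cell junctions and polarity. It had 0.26 and 0.25 in clone 41, against -2.41 and -2.04 in clone 18, while the IgM arrays had -6.79 and -6.99 and the untransfected arrays 0.79 and 1.09. The 2 control lines thus lay on either side of both clones, and the clones differed by 2.48 ± 0.20 (5.57-fold, adjusted p = 0.00518, up to 0.0613 without 1 array, limma). Parm1, a gene of a mucin-like protein, had 4.48 and 3.94 in clone 41, against 1.82 and 2.20 in clone 18, and 4.32 to 4.93 on the control arrays. Its difference of 2.20 ± 0.29 (adjusted p = 0.0463, limma) lost its call without any 1 of the 8 arrays.

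Pck2, the mitochondrial phosphoenolpyruvate carboxykinase, had -1.18 and -1.42 in clone 41, against -2.84 and -2.70 in clone 18, and -1.90 to -0.92 on the control arrays. The difference, 1.47 ± 0.19, was the smallest among the genes called higher in clone 41 (adjusted p = 0.0454, up to 0.343 without 1 array, limma). Outside the naming rule, a lincRNA probe of chromosome 4 was 3.08 ± 0.37 higher in clone 41, where it lay above the 4 control arrays. The antisense transcript D830044I16Rik (now Cdiptos) was 2.04 ± 0.20 higher in clone 41, and for a transcript described on the array as a predicted pseudogene (ENSMUST00000053717, shown as the Gm6684 transcript) the difference was -2.49 ± 0.21. The adjusted p values were 0.0338, 0.0122 and 0.00675 (limma), and each was lost without at least 3 of the 4 IgE arrays.

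**Figure D2:**
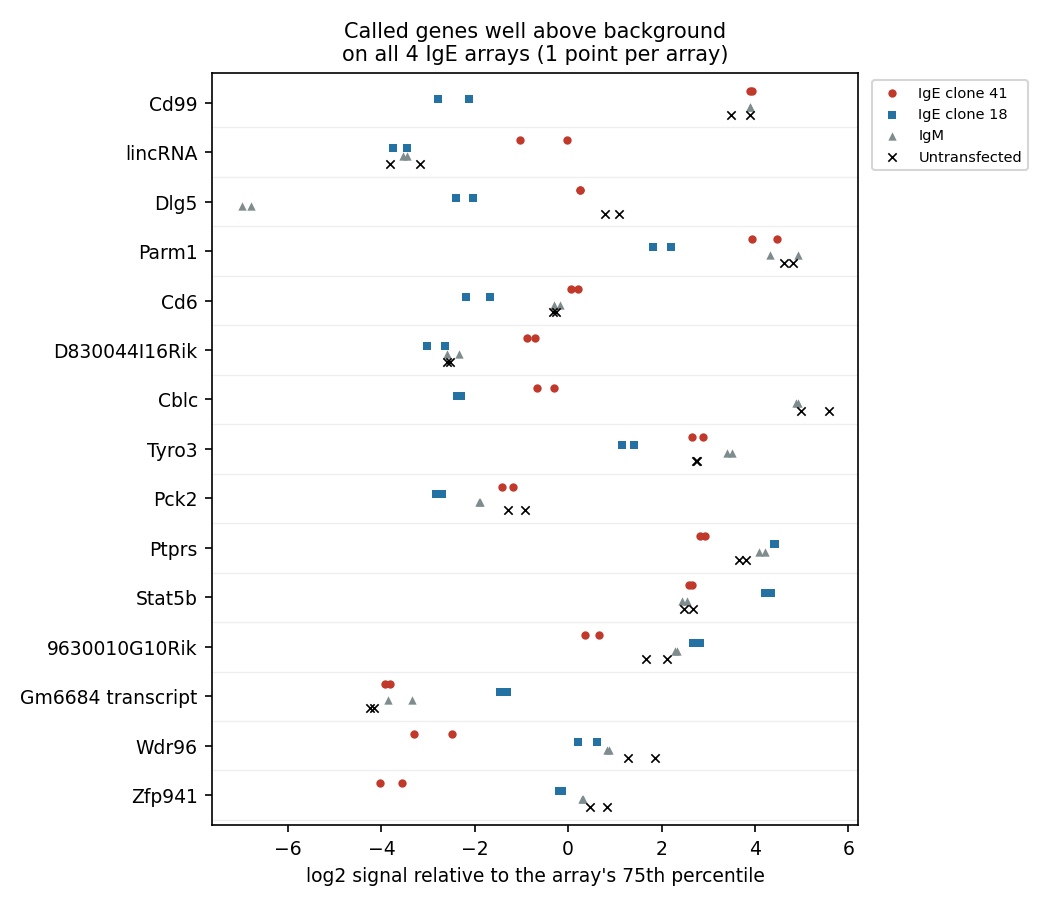
Each row is 1 of 15 of the 16 called genes well above background on all 4 IgE arrays, and each point is 1 array: clone 41 (red circles), clone 18 (blue squares), IgM (grey triangles) and untransfected cells (black crosses), on a horizontal axis of log2 signal relative to the array's 75th percentile. Rows run from the largest positive to the largest negative difference of clone 41 minus clone 18. The genes were called on these same arrays, so the gap between the points of the 2 clones follows from the choice of genes.

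Of the genes detected in clone 18 and not in clone 41, the largest difference was that of a transcript of 1700027A07Rik on chromosome 15 (ENSMUST00000150472), named after its values were seen. It had -5.00 and -4.56 in clone 41, against 3.95 and 3.24 in clone 18, and -5.95 to -4.78 on the control arrays. It was at least 292-fold lower in clone 41 (adjusted p = 7.6e-05, limma), and clone 18 was the only line with a signal above background.

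Ppp2r2c, a regulatory subunit of protein phosphatase 2A best known in the nervous system, had -6.59 and -6.81 in clone 41, against 0.96 and 0.76 in clone 18. The IgM arrays had -6.79 and -6.96 and the untransfected arrays -3.51 and -2.94. Clone 18 was the highest of the 4 lines, and clone 41 was at least 56.8-fold lower (adjusted p = 5.7e-05, limma). Gstk1, a glutathione transferase of mitochondria and peroxisomes, had -6.80 and -6.83 in clone 41, against -1.14 and -0.74 in clone 18, and -7.02 to -6.77 on the control arrays. Gstk1 was detected in clone 18 alone, unlike Ppp2r2c, which was also detected in untransfected cells, and was at least 16.3-fold lower in clone 41 (adjusted p = 5.7e-05, limma). Without 1 array in turn, the difference ran from -8.72 to -8.02 for the 1700027A07Rik transcript. It ran from -7.67 to -7.45 for Ppp2r2c and from -6.08 to -5.68 for Gstk1. The filter on detection was not redone for these fits, and the transcript and Gstk1 had passed it through clone 18 alone.

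Hoxb8 and Dnajb13 were likewise above background in clone 18 only, the line through which they, like Gstk1, passed the filter. Hoxb8 is a homeobox gene of body patterning that also takes part in blood cell growth, and Dnajb13 is a gene of sperm flagella. Hoxb8 had -6.90 and -6.82 in clone 41, against -3.16 and -4.27 in clone 18, and -7.09 to -6.93 on the control arrays (at least 2.38-fold lower in clone 41, adjusted p = 0.0198, up to 0.126 without 1 array, limma). Dnajb13 had -5.88 and -5.51 in clone 41, against -3.15 and -2.73 in clone 18, and -6.83 to -6.26 on the control arrays (at least 4.08-fold lower in clone 41, adjusted p = 0.00924, up to 0.091 without 1 array, limma). The Hedgehog pathway transcription factor gene Gli3 and the sodium channel subunit gene Scnn1a followed the same order, with bounds under 2-fold (at least 1.80-fold and 1.71-fold lower in clone 41).

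Other genes were detected in clone 18 and on at least 3 of the 4 control arrays and were not detected in clone 41. Lgr6, a receptor for R-spondins, had -6.89 and -6.80 in clone 41, against -2.86 and -2.45 in clone 18, and -2.97 to -1.47 on the control arrays. Clone 41 was at least 4.97-fold lower (adjusted p = 0.00113, limma), with the call kept without each array. Eif4e3, a cap-binding protein of the translation initiation family, had -5.60 and -5.61 in clone 41, against -2.98 and -3.20 in clone 18, and -2.57 to -2.03 on the control arrays (at least 3.67-fold lower in clone 41, adjusted p = 0.00391, up to 0.0613 without 1 array, limma).

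Rilpl2, which takes part in protein traffic in cilia, had -6.66 and -6.93 in clone 41, against -2.88 and -3.67 in clone 18, and -5.11 to -2.59 on the control arrays. The 2 arrays of IgM cells were spread over more than 1 log2 unit here, and clone 41 was at least 3.23-fold lower than clone 18 (adjusted p = 0.0461, up to 0.34 without 1 array, limma). Jag2, a Notch ligand, had -6.30 and -6.19 in clone 41, against -3.57 and -3.97 in clone 18, and -4.72 to -3.90 on the control arrays (at least 2.29-fold lower in clone 41, adjusted p = 0.00484, up to 0.0591 without 1 array, limma). Maml2, a coactivator of Notch receptors, was also detected on both clone 18 arrays and on neither clone 41 array, with a bound of at least 1.87-fold lower in clone 41 (adjusted p = 0.0399, limma).

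An unnamed locus on chromosome 2 gave this pattern with a pair of probes whose sequences overlap, so they are 1 observation and not 2. The probes are shown because they share letters, which are in capitals. The first belongs to a transcript (ENSMUST00000134982, chr2:175432959-175433018, mm9, minus strand) and the second to a lincRNA (chr2:175432982-175433041, mm9, minus strand), and 37 bases are common to both.
ENSMUST00000134982 probe: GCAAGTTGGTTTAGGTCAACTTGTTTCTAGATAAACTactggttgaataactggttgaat
lincRNA probe: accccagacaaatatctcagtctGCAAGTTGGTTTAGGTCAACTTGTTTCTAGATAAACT

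The first probe had -6.75 and -6.79 in clone 41, against -3.06 and -3.14 in clone 18, and -2.53 to -1.59 on the control arrays. The second had -6.74 and -6.80 in clone 41, against -2.59 and -2.16 in clone 18, and -1.70 to -0.65 on the control arrays. On both probes clone 41 was near the lowest signals of the array, and the bounds were at least 3.65-fold and 6.02-fold lower (adjusted p = 0.00252 and 0.00301, limma).

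**Figure D3:**
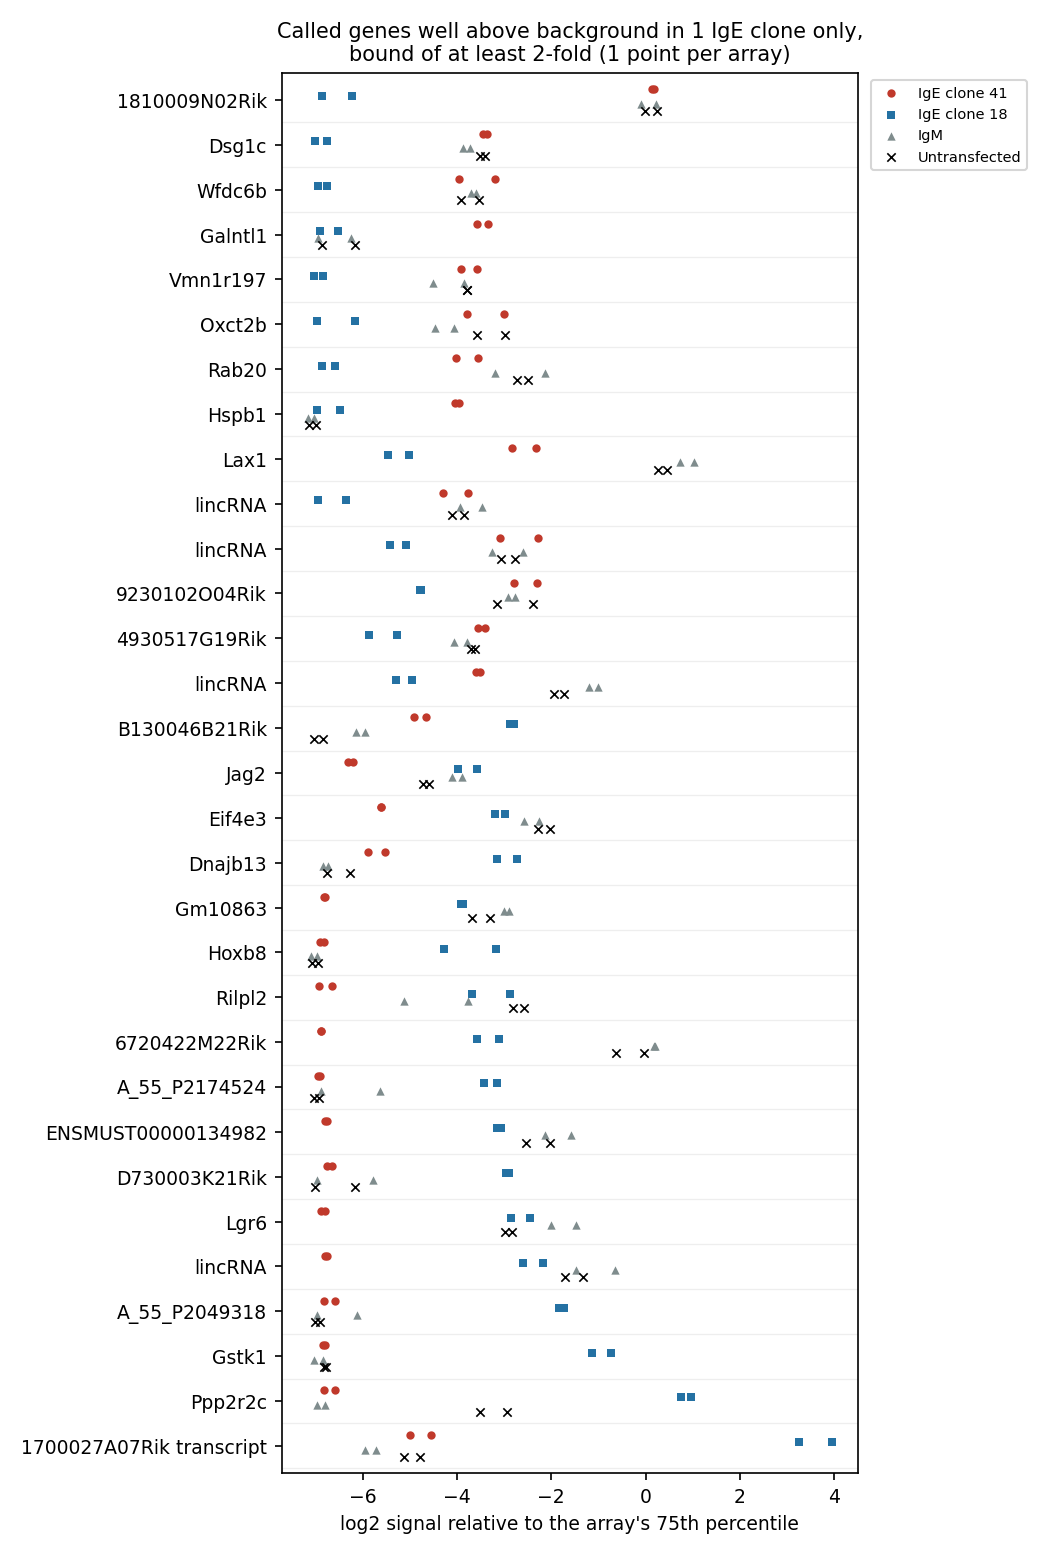
Each row is 1 of the 31 called genes that were well above background on both arrays of 1 IgE clone and on neither array of the other, with a bound of at least 2-fold; each point is 1 array, on a horizontal axis of log2 signal relative to the array's 75th percentile. Rows run from the largest positive to the largest negative difference of clone 41 minus clone 18, with clone 41 as red circles, clone 18 as blue squares, IgM as grey triangles and untransfected cells as black crosses.

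Some genes were detected in clone 41 and in no other line, and passed the filter through clone 41 alone. Hspb1, a small heat shock protein, had -4.04 and -3.95 in clone 41, against -6.48 and -6.97 in clone 18, and -7.16 to -6.98 on the control arrays. It was at least 2.30-fold higher in clone 41 (adjusted p = 0.00391, limma) and kept its call without each array. Over all alternatives, processing included, Hspb1 was called in 19 of 22, and its difference fell as low as 0.39. Galntl1 (now Galnt16), an enzyme that starts O-linked sugar chains, had -3.35 and -3.57 in clone 41, against -6.90 and -6.52 in clone 18, and -6.94 to -6.17 on the control arrays (at least 3.33-fold higher in clone 41, adjusted p = 0.0144, up to 0.187 without 1 array, limma). Ttn, the gene of the muscle protein titin, had the same order with a bound of at least 1.79-fold; without the filter on dim probes another probe stood for Ttn, with a difference of -0.52. In contrast, Rab20, a small GTPase of endosomes, had -4.02 and -3.55 in clone 41, against -6.58 and -6.87 in clone 18, and -3.19 to -2.14 on the control arrays (at least 2.66-fold higher in clone 41, adjusted p = 0.0354, up to 0.247 without 1 array, limma).

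Each called gene was set against the range of the 4 control arrays. For 32 of the 60 genes only the clone 18 mean lay more than 1 log2 unit outside that range, below it for 17 genes and above it for 15. For 17 genes only the clone 41 mean did so, above the range for 6 and below it for 11. Both clones lay outside on the same side for 8 genes, among them Cblc and Lax1 below the controls, and neither did for 3 genes, Dlg5, Pck2 and Ptprs. No gene had the clones on opposite sides of the controls by this margin. These counts describe the called genes. They were not set against all genes, and no test was made of the difference between the clones' counts. Over all 19196 genes, the share called against untransfected cells was 7.62% for clone 18 and 5.56% for clone 41. Against IgM cells it was 9.02% for clone 18 and 7.33% for clone 41.

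**Figure D4:**
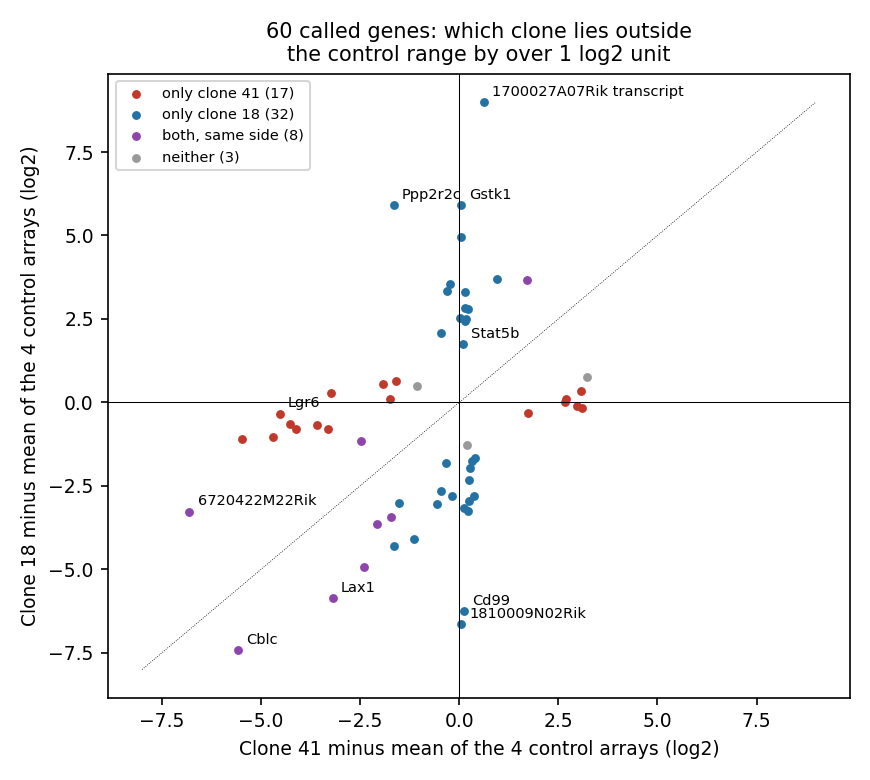
Each point is 1 of the 60 called genes, with the clone 41 mean minus the mean of the 4 control arrays on the horizontal axis and the clone 18 mean minus the same mean on the vertical axis, both in log2 units. Colours show which clone's mean lies more than 1 log2 unit outside the control range: 17 genes for clone 41 only, 32 for clone 18 only, 8 for both and 3 for neither; the dotted line marks equal values in the 2 clones.

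Part of the genes higher in clone 41 had probes with a shared run of letters. Vertebrate chromosomes end in tandem copies of 6 letters, CCCTAA on one strand and TTAGGG on the other, kept up by telomerase. The longest run of each probe's letters found anywhere in the repeated CCCTAA unit, read on the strand of the probe, was determined for the 28021 probes kept off chromosomes X and Y. The repeat was chosen after these probes had been seen, so the values are a description with no test. Stretches of 30 of the 60 letters of 7 probes are shown, with the run in capitals. The first 4 belong to probes at least 2-fold higher in clone 41 and the last 3 to probes that were not.
Wfdc6b (chr2:164442886-164442945, mm9, plus strand): gggAACCCTAACaacttcgaatctaaagct
Vmn1r197 (chr13:22420557-22420616, mm9, plus strand): ttccggagttCCTAACCCTtggttatgcag
Oxct2b (chr4:122795186-122795245, mm9, plus strand): gtgaccttaattaaaAACCCTAACCtgaaa
Tfpi (chr2:84281022-84281081, mm9, minus strand): tggTAACCCTAACtcactttaggtttatag
Nfya (chr17:48526686-48526745, mm9, minus strand): gtttgtacaTAACCCTAACCtcgtaggcaa
Rpl14 (chr9:120483689-120483748, mm9, plus strand): acagtgtcgtTAACCCTAACaaataaattt
Terc (chr3:96218697-96218756, mm9, minus strand): aCCTAACCCTgattttcattagctgtgggt

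A run of 9 or more letters was held by 40 probes, 0.143% of all. Of these, 21 (52.5%) were at least 2-fold higher in clone 41 and none was at least 2-fold lower, while 1.88% of all probes were at least 2-fold higher. The share was 20% for 50 probes with a run of 8 letters, 4.60% for 261 probes with 7, and 1.75% for 27670 probes with fewer. On the other strand of the same repeat, a run of 9 or more letters was held by 16 probes, of which 1 was at least 2-fold higher.

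All 21 probes were dim. Among probes with a mean under -2 over all 8 arrays, 21 of 26 with a run of 9 or more letters (80.8%) were at least 2-fold higher in clone 41, against 3.95% of 9626 dim probes without such a run. None of 14 brighter probes with a run was. The median difference of the 26 dim probes, 1.97 here, was 0.53 with normexp background and 0.83 in the authors' deposited table, both under 2-fold. The median of the 26 dim probes was -3.37 and -3.07 on the clone 41 arrays, against -4.62 and -5.80 on the clone 18 arrays, and -3.71 to -2.93 on the control arrays. On these medians clone 18 was the line that stood apart. The 9626 dim probes without the run had medians of -3.51 and -3.53 on the clone 41 arrays and -3.39 and -3.56 on the clone 18 arrays.

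The run was held by 5 of the 30 genes called higher in clone 41 and by none of the 30 called lower. They were Dsg1c, a desmosomal cadherin, Wfdc6b, of a family of protease inhibitors, Vmn1r197, a pheromone receptor, Oxct2b, a testis enzyme of ketone body use, and a lincRNA of chromosome 5. These are genes of other tissues, and whether their signal came from the named genes was not tested. Dsg1c had -3.44 and -3.36 in clone 41, against -7.01 and -6.75 in clone 18, and -3.87 to -3.40 on the control arrays (at least 3.48-fold higher in clone 41, adjusted p = 0.000461, limma). It kept its call without each array. Over all alternatives, processing included, Dsg1c was called in 20 of 22, and its difference fell as low as 0.62.

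Wfdc6b had -3.95 and -3.19 in clone 41, against -6.93 and -6.75 in clone 18 (at least 3.1-fold higher in clone 41, adjusted p = 0.00688, up to 0.108 without 1 array, limma). Vmn1r197 had -3.91 and -3.58 in clone 41, against -7.03 and -6.83 in clone 18 (at least 2.74-fold, adjusted p = 0.00518, up to 0.0824 without 1 array, limma). Oxct2b had -3.78 and -3.01 in clone 41, against -6.16 and -6.96 in clone 18 (at least 3.48-fold, adjusted p = 0.0358, up to 0.209 without 1 array, limma). All 3 were detected on all 4 control arrays.

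Probes with the run that were bright did not follow. Rpl14, a ribosomal protein gene, had 3.45 and 3.64 in clone 41, against 3.34 and 3.52 in clone 18. Nfya, a subunit of a CCAAT-binding factor, had 1.74 and 1.44 in clone 41, against 1.37 and 1.39 in clone 18. Terc encodes the RNA of telomerase, whose template copies this repeat. Its probe, which is dim, had -2.45 and -2.45 in clone 41, against -2.52 and -3.13 in clone 18, a difference of 0.37 ± 0.38 (adjusted p = 0.999, limma).

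**Figure D5:**
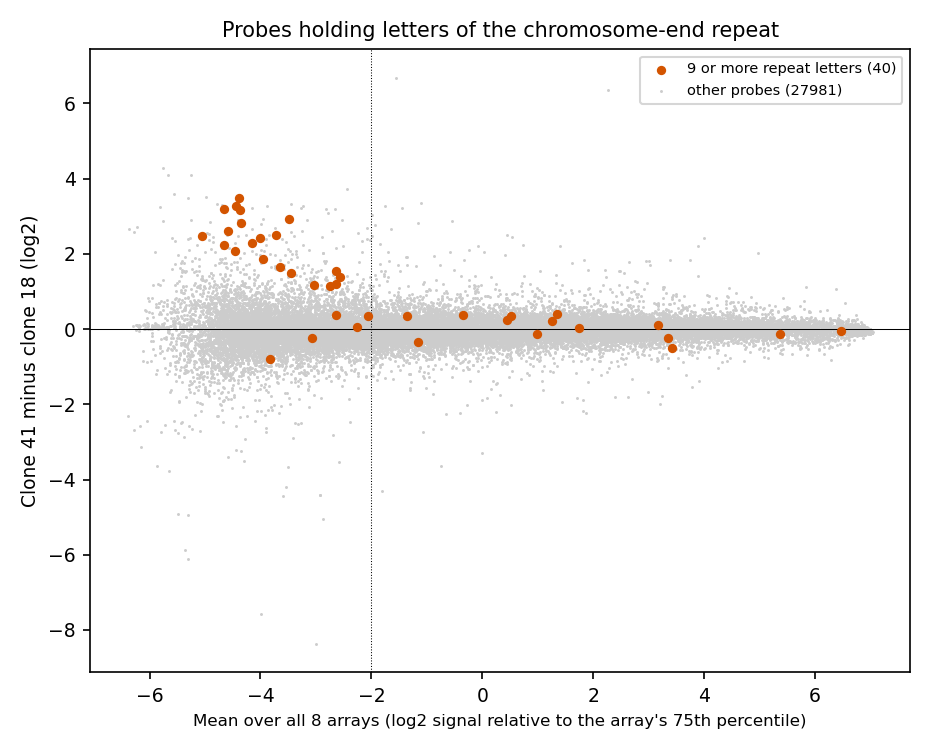
Each point is 1 of 28021 probes, with its mean over all 8 arrays (log2 signal relative to the array's 75th percentile) on the horizontal axis and clone 41 minus clone 18 (log2) on the vertical axis. Orange points are the 40 probes holding 9 or more letters of the chromosome-end repeat; left of the dotted line at -2, 21 of 26 lie at or above 1, and right of it none of 14 does.

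No chain of the B cell receptor that was tested was called. The IgM heavy chain constant region probe (ENSMUST00000103426, chromosome 12) had 3.93 and 3.94 in clone 41, against 3.65 and 3.80 in clone 18. The IgE heavy chain constant region probe (ENSMUST00000103414, chromosome 12, named on the array by an older synonym of Ighe) had -0.13 and 0.40 in clone 41, against 0.48 and 0.36 in clone 18, a difference of -0.29 with a 95% interval of -1.27 to 0.69. The same probe had 0.09 and 1.02 in IgM cells and -1.21 and -0.31 in untransfected cells, so it did not set the IgE clones apart from the IgM line. Its groups overlap, and the interval does not leave out a value 2-fold lower in clone 41. Cd79a had 4.75 and 4.50 in clone 41, against 3.90 and 4.10 in clone 18 (difference 0.63 with an interval of 0.16 to 1.09, adjusted p = 0.585, limma). Cd79b averaged 6.81 ± 0.03 in clone 41 and 6.93 ± 0.18 in clone 18 (SD, n = 2 arrays each, adjusted p = 0.999, limma). The kappa light chain probe (Igkc) was dim, with -3.65 and -2.97 in clone 41, against -2.88 and -3.34 in clone 18. A bright IgG2a heavy chain probe had 6.63 and 7.04 in clone 41, against 6.88 and 6.93 in clone 18.

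Of 18 genes of B cell biology chosen with earlier results of the series known, 16 were matched by symbol and the 2 heavy chains by their description on the array. Cblc was the 1 gene called. The interval of the difference stayed within 1 log2 unit of 0 for the germinal centre repressor Bcl6 (-0.40 to 0.43), for the B cell factor Pax5 (-0.70 to 0.69), for the kinase Syk (-0.79 to 0.29) and for Hax1, an anti-apoptotic protein (-0.15 to 0.71). It was wider for Rgs13, a brake on G protein signals (up to 2.88), for the plasma cell factor Prdm1 (-1.15 to 2.75), for the IgE receptor Fcer2a (-1.73 to 1.10) and for the lactate exporter Slc16a3 (-2.34 to 0.70). For these, the interval includes a 2-fold difference. The interval rests on the spread within all 4 lines: Rgs13 had 4.11 and 3.94 in clone 41, against 2.98 and 3.19 in clone 18, while the untransfected arrays stood at -0.29 and -3.02.

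The other 30 gene lists, also chosen with earlier results known, held few calls. Over all genes 0.313% were called and the median difference was -0.01. Over 638 list genes, 4 were called: Cblc and Ptprs in the list of Cbl proteins and tyrosine phosphatases (1 higher and 1 lower of 26, median 0.08), Stat5b in the list of cytokine receptors and STATs (1 lower of 34, median -0.01) and Cd6 in the list of T cell markers (1 higher of 10, median 0.13). No member was called among 36 genes of the B cell receptor and its co-receptors (median 0.00), 34 of the cell cycle (median 0.02), 38 clustered histones (median -0.08) or 33 of the unfolded protein response and secretion (median 0.13).

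A few lists had medians away from 0 without a called member. Glycolysis and hypoxia genes had a median of -0.37, with 28 of 31 below 0 and none called. Its lowest member was Eno2, a glycolytic enolase, at -2.03 (unadjusted p = 0.00108), followed by Ankrd37 at -1.83 and the mitophagy gene Bnip3 at -1.78. Cholesterol synthesis and uptake genes had a median of -0.49, with 28 of 32 below 0 and none called. For cholesterol genes the 2 arrays of clone 41 stood apart. Relative to each gene's mean over the 4 IgE arrays the list median was -0.04 and -0.49 in clone 41, against 0.29 and 0.26 in clone 18. For glycolysis genes it was -0.03 and -0.33 in clone 41, against 0.33 and 0.12 in clone 18. Immediate early and activation genes had a median of 0.27 and plasma cell genes one of 0.43, the highest of all lists, with none called among 26 and 17. The transcription factor Egr2 had a difference of 2.46 and the activation marker Cd69 one of 1.69 (unadjusted p = 0.0138 and 0.0043), which did not pass after adjustment. Fyn, a kinase of antigen receptor signalling, had 1.58 and 1.5 in clone 41, against -0.08 and 0.03 in clone 18, and did not pass (difference 1.56, adjusted p = 0.241, limma). The Fc receptor-like gene Fcrla had 2.24 and 2.98 in clone 41, against 4.51 and 4.69 in clone 18 (difference -1.99, adjusted p = 0.124, limma), and the tetraspanin gene Cd9 had -0.96 and -0.82 in clone 41, against -4.47 and -4.77 in clone 18 (difference 3.73, adjusted p = 0.241, limma). These 3 genes were picked after their values were seen, and the test over all genes did not call them.

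Markers of cell types were read as detection and as single genes. All 10 B cell markers were above background on all 8 arrays, and so were all 8 myeloid markers tested, of 13 listed, so detection alone does not set these lists apart in either clone. Of 15 T cell markers 10 were tested, and 8 were detected on each clone 41 array, against 9 and 8 on the clone 18 arrays; Cd3g was detected on no IgE array. Summed over the list, T cell markers stood at 4.18 and 4.4 (log2) in clone 41, against 4.36 and 4.41 in clone 18. The sums of B cell markers (8.32 and 8.31 in clone 41, against 8.23 and 8.38 in clone 18) and of myeloid markers (7.64 and 7.61 in clone 41, against 7.74 and 7.61 in clone 18) each include a bright probe that was saturated on all 4 IgE arrays, Cd74 and Csf3r, and can show little change. Of the 8 myeloid markers, 6 were lower in clone 41 and 2 higher, Mpo (0.76) and Itgam (0.11), with none called. The macrophage gene Cd68 was among the lower, with 2.72 and 2.30 in clone 41, against 3.60 and 3.14 in clone 18 (difference -0.86). The 7 stromal and erythroid markers summed to 2.85 and 2.53 in clone 41, against 4.26 and 4.16 in clone 18 and 0.51 to 3.59 on the control arrays. In that list the globin gene Hbb-b1 had a difference of -2.17 (unadjusted p = 0.00119, adjusted p = 0.158, limma). Hbb-b1 was the brightest member of the sum on all 4 IgE arrays, with 1.87 and 1.47 in clone 41, against 3.88 and 3.80 in clone 18. The other globin gene tested, Hba-a1, differed by -0.05 (unadjusted p = 0.92, limma), and Pecam1 by -0.06. The part of these markers in the called genes was not tested.

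The called genes with a position lay on 17 of the 19 autosomes, with none on chromosomes 10 and 16, and the share called ran from 0% to 0.642% per autosome, the highest on chromosome 15. Median differences per autosome ran from -0.05 to 0.02. Of 253 windows of 10 Mb with at least 8 genes tested, 206 held no called gene, 38 held 1 and none held more than 3, and window medians ran from -0.23 to 0.17. With windows of 5 Mb the medians ran from -0.39 to 0.39. In 3 places, called probes started within 200 kb of each other: the overlapping pair on chromosome 2, Ptprs with its neighbouring cDNA on chromosome 17, and a lincRNA and the cDNA A130088B03Rik on chromosome 15, 217 bases apart and both higher in clone 41.

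Of the 10 called genes with more than 1 probe kept, 9 had all probes on the same side of 0, and the lincRNA of chromosome 4 had 2 of its 3 probes higher. With each probe tested on its own, both probes were called for Stat5b and Ptprs, 1 probe for 7 genes, and no probe for Cblc.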

How the data were processed

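Total RNA of 4 A20 lines, 2 samples each, was labelled with Cy3 and hybridised to 1-colour Agilent mouse arrays of design 028005. Per the file headers, the deposited intensity values were made by Agilent Feature Extraction 10.7.3.1, with background subtracted and no normalization between arrays, and probes were placed on mm9. The deposited log2 table of the series served as an alternative. Its normalization and centring are not given in the sources used here (column medians of 5.91 to 5.92 on the log2 scale, with 5.905 the lowest). All 8 arrays lay on 1 slide with 1 line per slide column, and a column effect cannot be told apart from a line.

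Processed intensity, as log2, was centred on each array's 75th percentile (474 to 664 intensity units). Flagged spots were left out and repeated spots averaged. A probe well above background on both arrays of a line was kept (29140 of 55681), and the brightest probe stood for each gene. limma 3.58.1 in R 4.3.3 fitted 1 mean per line to all 8 arrays (4 residual and 2.66 prior degrees of freedom), with two-sided tests adjusted by Benjamini-Hochberg over 19973 genes. X and Y genes stayed in the fit. Of the genes described, 13026 matched a GRCm38.p6 reference table, which gave present names and no coordinates. The array's mm9 positions carry no exon annotation here. Bounds rest on the lowest signal above background on each array (log2 -5.58 to -4.63 on the IgE arrays), or on the gene's own signal there where higher. The number of arrays limits the precision.

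The comparison, gene lists and naming rule were chosen with earlier results of these data known. The rule took called genes with a symbol and an autosomal position: up to 14 per direction by size among genes measured on all 4 IgE arrays, up to 8 per direction by bound, up to 5 per list, and 18 fixed genes. Up to 4 called genes in each of the 3 windows per direction with the largest medians were also taken. The values of 2 genes that the rule named are not reported here. Other names were chosen after their values were seen. Whether the replicate numbers pair arrays was checked by correlating the deviations of same-numbered arrays from their line means (-0.06 to 0.36 over 6 pairs of lines, 0.26 between the IgE clones). Of the 6 values 4 were over 0.1 and 2 were not, so the numbers were not used as pairs. The alternatives covered the arrays fitted, the replicate number, normalization, background, filters, probes, the prior and each array left out.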

Additional observations from a re-analysis of the deposited data

How the results depend on the processing

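Against 30 higher and 30 lower calls in clone 41, the counts moved by over 1.5 times under these settings. The 4 IgE arrays alone gave 76 higher and 58 lower. Normexp background gave 11 higher and 21 lower, with 20 of the 60 genes still called, and the authors' deposited log2 table gave 4 and 7. No filter on dim probes gave 9 and 16, and probes above background on all 8 arrays gave 5 and 6, where 45 of the 60 genes were no longer tested. Leaving out 1 array gave 7 to 50 higher and 16 to 44 lower. The numbers of samples and of genes tested differ by construction in the settings on arrays and filters; for the background and the log2 table the cause was not tested. Quantile normalization (22 and 26), the trend and robust prior (24 and 25) and the other settings on all 8 arrays stayed within 1.5 times.

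The replicate number as a block gave 33 higher and 33 lower calls with all 8 arrays, 50 of the 60 genes among them. The block with only the 4 IgE arrays gave 125 and 90, all 60 among them. Deviations of same-numbered arrays correlated by over 0.1 in 4 of 6 pairs of lines, not in all, so the block was kept as an alternative.

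Without the dim-probe filter another probe stood for Ttn (-0.52) and for Gm15308 (0.24), which turned their direction. No other called gene changed direction in any alternative that tested it, and 7 of 60 stayed called in all of them. Of 344 values for the 15 fixed genes not called, 9 changed sign and none was called. The largest window median was -0.23 with windows of 10 Mb and -0.39 with 5 Mb. The median difference of the 26 dim probes with a run of 9 or more repeat letters was 1.97, and from 1.58 to 2.32 without 1 array. It was 0.53 with normexp background and 0.83 in the deposited log2 table. In alternatives chosen after seeing the data, it was 1.63 with 8 letters, 1.97 with 10, and -0.014 on the other strand; 25 higher calls were left without the probes holding the run. Signals near background limit the dim genes: for 40 of the 60 the fold is a bound.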
